A study of Mus musculus with 24 samples.

Results

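The genes described here encode the receptors for glutamate and for γ-aminobutyric acid (GABA), the main excitatory and inhibitory transmitters of the brain. They were taken by symbol from 2 expression tables of a mouse Huntington's disease model, as every gene named as an AMPA, kainate, delta, NMDA or metabotropic glutamate receptor (Gria, Grik, Grid, Grin and Grm) or as a GABA receptor subunit (Gabr and Gabbr). This gave 47 of 17953 genes, of which 40 were in the neural progenitor cell (NPC) table, 45 in the mouse embryonic stem cell (mESC) table and 38 in both. By family they were 4 AMPA, 5 kainate, 2 delta and 7 NMDA receptor subunits, 2, 2 and 4 metabotropic receptors of groups I, II and III, 15 GABAA, 3 rho and 2 GABAB receptor subunits. The last match encodes an interacting protein and is not itself a receptor.

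The study sequenced RNA of 24 libraries, with 2 per genotype and cell type and 6 genotypes of Htt. Htt encodes huntingtin, the protein whose CAG repeat is expanded in the disease. Cells were wild type (WT), lacked Htt by their label (KO, zygosity not given) or were heterozygous for a knock-in, the allele having 20, 50, 92 or 111 CAG repeats (Q20, Q50, Q92 and Q111). The titles give 92 repeats for a line that the growth protocol lists at 89. The mESC were grown on irradiated mouse fibroblasts with leukemia inhibitory factor, and the NPC were derived from mESC in N2B27 medium and expanded with FGF and EGF, so a genotype and its line cannot be told apart. The design text calls the libraries of a group biological samples, but says nothing of separate derivations, and p-values measure only the spread between these libraries. Values are the deposited normalised CPM (read counts scaled to library size), from 48525333 to 118038952 recovered reads per NPC library and 58546211 to 81502284 per mESC library. A gene listed at 0 may reach 0.0265 to 0.058 CPM in NPC (3 reads, counting error only).

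Ionotropic glutamate receptors are channels of 4 subunits. AMPA receptors carry fast excitation, NMDA receptors need the obligate subunit GluN1 (Grin1), and kainate receptors modulate release and excitability. Metabotropic glutamate receptors and the GABAB receptor act through G proteins, while GABAA receptors are chloride channels. Neural progenitors and glia also express many of these genes, and GABAA and AMPA receptors on progenitors are known to influence their proliferation.

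Htt was 137 and 177 CPM in the WT NPC libraries and 100.1 and 94.9 CPM in those labelled KO, a log2 change of -0.67 (SE 0.14, limma adjusted p = 0.0673). In mESC it was 124 and 113 CPM in WT against 139 and 68.5 CPM in KO, so the mESC library labelled KO replicate 1 was not below WT. Of 8 progenitor markers, 7 were in the NPC table (Sox2 was not analysed here), and they summed to 2544 to 7135 CPM against 105 to 520 CPM in mESC. The summed neuron markers were 761 to 1640 CPM in NPC, and those of astrocytes ranged from 276 CPM in Q111 to 2610 CPM in Q20. In bulk libraries, fewer cells of a type and less RNA per cell cannot be told apart.

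Grm5, Grm3 and Gria4 were the most abundant receptor genes of NPC once length was taken into account. Dividing the mean CPM over 12 libraries by the exonic length in kilobases (GENCODE M21, untranslated regions included) gave 21.6 for Grm5, a group I receptor, 18.6 for Grm3, a group II receptor, and 13.5 for the AMPA subunit Gria4. Gabbr1 followed with 10.3 CPM per kb, then Grik5 with 7.47, Gria3 with 6.62, Gria2 with 6.57 and the GABAA γ1 gene Gabrg1 with 5.85. Grin1 stood at 0.289 CPM per kb, and 13.5% of its exonic length overlaps the opposite-strand gene Grin1os. Whether strand was used in counting is not given in the sources used here, so reads of Grin1 and Grin1os cannot be told apart. The same holds for 4.98% of the exonic length of Gabra5, which an opposite-strand gene overlaps. In NPC 30 members reached 1 CPM in at least 2 libraries and were tested, while 10 did not, among them Gria1, Grin2d, Grin3b, Grm7, Grm8, Gabre, Gabrg3, Gabrr1 and Gabrr2. Grik1, Gabra4 and Gabrq passed through a single genotype, so counts over the 30 members include genes that had to differ; 18 members had a library at 1 CPM in each genotype.

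**Figure D1:**
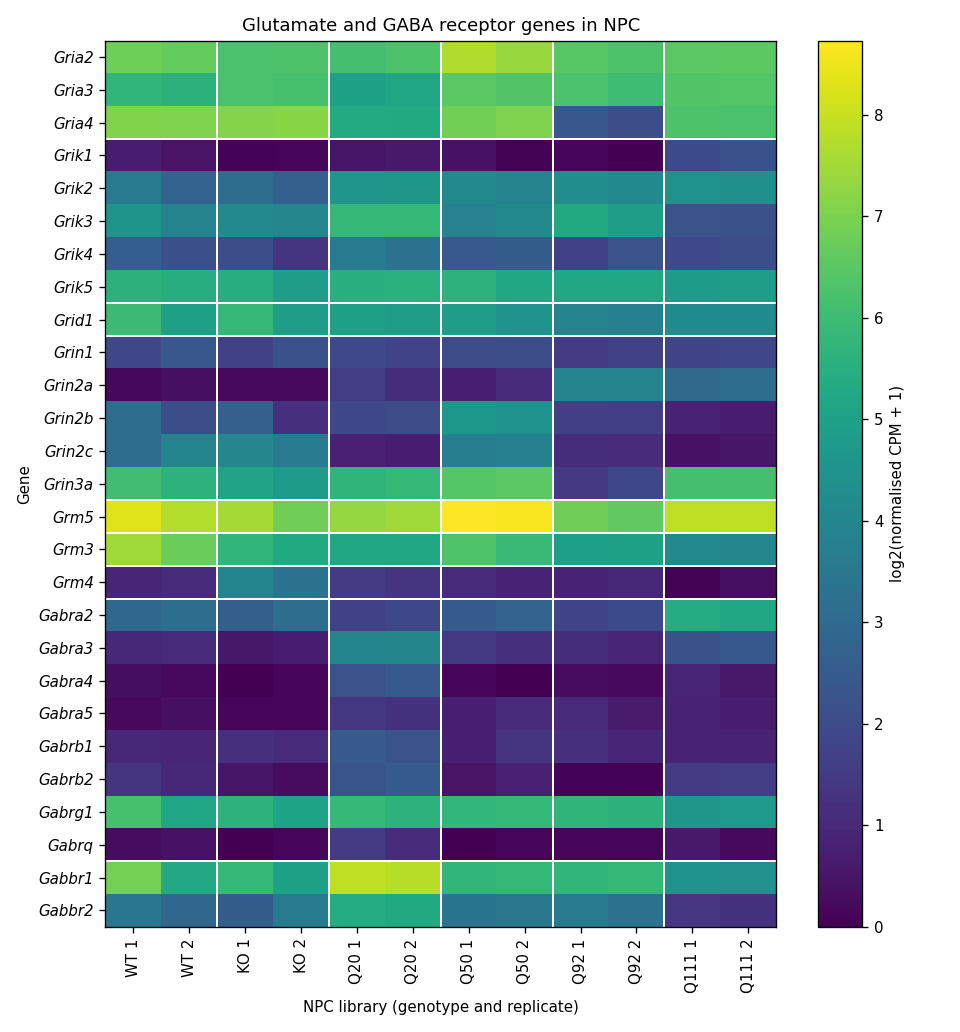
Levels of 27 of the 30 tested genes in the 12 NPC libraries, as log2(normalised CPM + 1) on a colour scale, with genes in rows by family and libraries in columns by genotype. Gria4 and Grin3a are dark in both Q92 libraries, Gabbr1 and Gabbr2 are brightest in Q20, and Gabra2 is brightest in Q111.

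Receptor genes differed widely between the NPC genotypes, in sets that partly overlapped between lines. A moderated F test over the 6 genotypes called 27 of 30 members at a limma adjusted p under 0.05, against 38% of all 13206 genes tested; Grik5, Gabrg1 and Grin1 were not called. When a mean CPM of 5 or more was required, the count was 15 of 18 members against 31% of genes. The median size of the largest difference between genotypes was 2.10 on the log2(CPM + 1) scale for members and 0.97 for all genes. Q20 held the highest mean for 12 of 30 members (40%, against 20.5% of all genes) and Q111 the lowest for 11 (36.7%, against 21.6%). On this scale the change of low genes is understated.

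Against WT, the Q20 line called 18 of 30 members, 12 higher and 6 lower (14.5% of all genes were called, 9.97% higher and 4.57% lower). The higher members were 6 GABAA genes, both GABAB genes, Grik2, Grik3, Grik4 and Grin2a, and the lower ones were the 3 tested AMPA genes, Grin2c, Grm3 and Gabra2. The Gria2 call was lost in 8 of 12 other settings, edgeR among them (adjusted p = 0.0819), and without WT replicate 1, Q20 replicate 1 or Q20 replicate 2 (adjusted p of 0.09, 0.224 and 0.114). The Gria3 call was lost without Q20 replicate 1 (adjusted p = 0.116) or 2 (adjusted p = 0.0528). Fitted on the libraries of Q20 and WT alone, 5 members were called (3.6% of genes), and 8 of 18 were when a mean CPM of 5 or more was required (7.66% of genes). Neuron markers were called higher for 4 of 8 and lower for 1 in the same comparison, with summed levels of 803 to 980 CPM in Q20 and 1270 to 1640 CPM in WT, and their part in the result was not tested.

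Q50, Q92 and Q111 were each compared with Q20, whose libraries these comparisons share. Q50 called 17 members, 9 higher and 8 lower (18.8% of all genes were called, 8.05% higher and 10.7% lower), with a median change of -0.29 (0.00 over all genes). Q92 called 12, 2 higher and 10 lower (25.8% of genes, 9.88% higher and 15.9% lower), with a median of -0.50 (0.06 over all genes). Q111 called 20, 5 higher and 15 lower (28.3% of genes, 12.2% higher and 16.1% lower), with a median of -0.73 (0.03 over all genes). The calls depended on the reference. Against WT, Q50 called 4 members, all higher (6.62% of genes, 4.54% higher and 2.08% lower). Q92 called 1 higher and 9 lower against WT (8.66% of genes, 3.42% higher and 5.25% lower). Q111 called 6 higher and 10 lower (16.6% of genes, 8.74% higher and 7.9% lower). Requiring a mean CPM of 5 or more in the comparisons with Q20 left 11, 5 and 9 calls among 18 members (61.1%, 27.8% and 50%, against 13%, 19.7% and 22.3% of genes under the same filter).

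**Figure D2:**
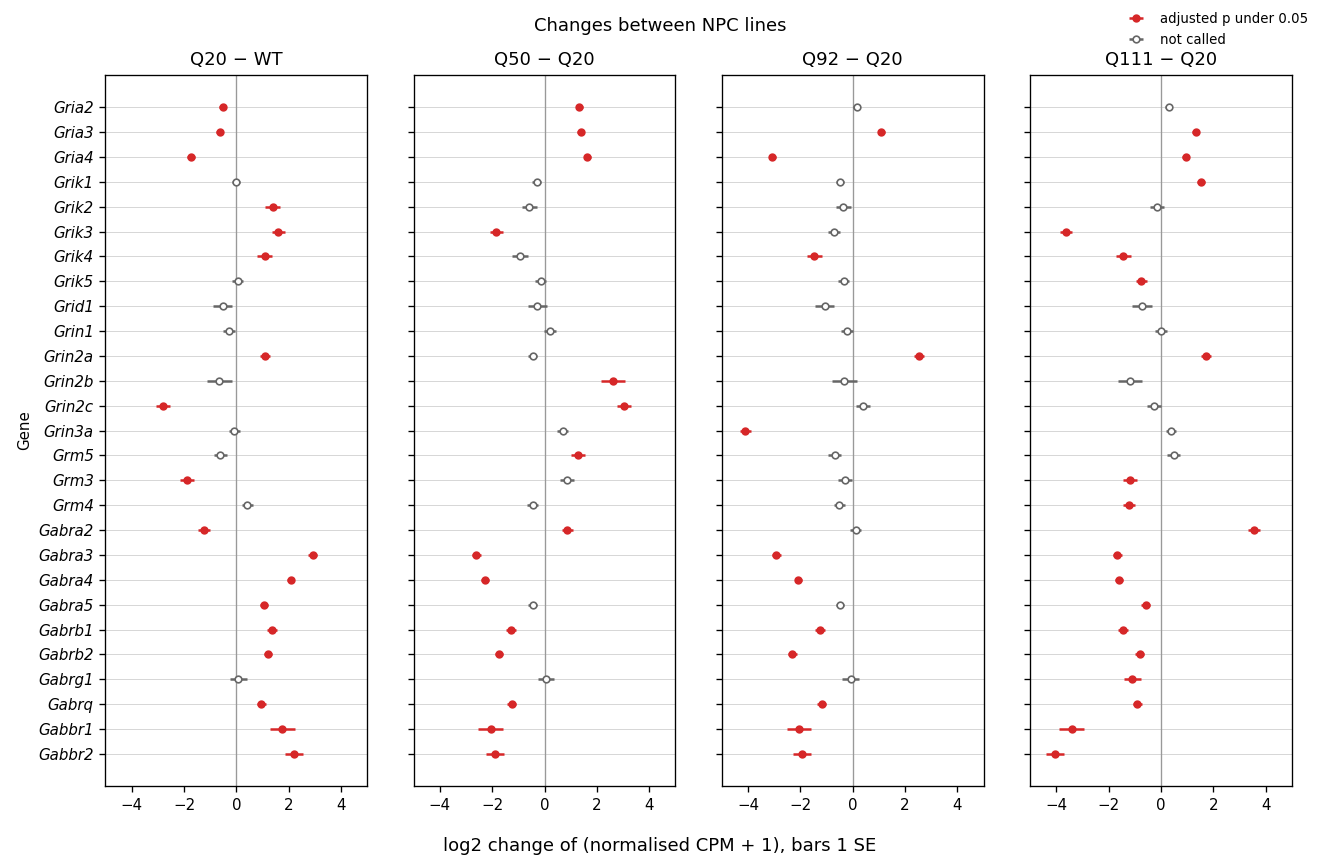
Differences between NPC lines for 27 of the 30 tested members, as the log2 change of (normalised CPM + 1) with bars of 1 SE, in 4 panels; filled red points have a limma adjusted p under 0.05. GABAB and most GABAA points lie to the right in Q20 − WT and to the left in the panels that use Q20 as reference and share its libraries.

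Among the AMPA genes, which encode the pore subunits GluA1 to GluA4, Gria4 differed most. It was 133 and 130.0 CPM in WT, 136 and 143 CPM in KO, 39.5 and 38.2 CPM in Q20, 115 and 129.6 CPM in Q50, 4.21 and 3.30 CPM in Q92 and 77.9 and 74.3 CPM in Q111. Q92 stood apart below every other library, and Q20 and Q111 lay between it and the rest. The change of Gria4 was -3.07 in Q92 against Q20 (SE 0.14, limma adjusted p = 3.42e-06) and -4.81 against WT (SE 0.14, adjusted p = 1.74e-06), and Q20 against WT gave -1.74 (adjusted p = 7.2e-05). In Q50 and Q111 it was higher than in Q20, by 1.63 and 0.95, but against WT these lines gave -0.11 and -0.78, so the sign turned with the reference. Its promoter, the 250 bases before the RefSeq start (GRCm38.p6, chr9:4796235-4796484, minus strand, read 5′ to 3′ along the gene), is shown because the largest difference between genotype means, 4.89, was the widest of the 30 members; capitals mark CG dinucleotides.
Gria4: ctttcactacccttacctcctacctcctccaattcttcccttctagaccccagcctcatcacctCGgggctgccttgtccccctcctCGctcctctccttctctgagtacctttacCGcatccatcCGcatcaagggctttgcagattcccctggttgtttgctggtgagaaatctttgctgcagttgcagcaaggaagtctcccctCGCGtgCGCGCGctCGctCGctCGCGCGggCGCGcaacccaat
This window holds 16 CG dinucleotides, as many as or more than which are found in 25.4% of 32851 RefSeq promoter windows of 250 bases. RefSeq windows were matched for 32 of the 47 members. Their median was 11 CG against 6 over all windows, and 31 of 32 held a CG against 92.1%. Searched on both strands, the GC box GGGCGG was in 18 of 32 member windows and 32.7% of all, the E box CANNTG in 17 and 66.2%, CCAAT in 13 and 33.8%, and TATAAA in 3 and 12.4%.

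Gria3 and Gria2 moved less. Gria3, on the X chromosome, was 52.8 and 47.7 CPM in WT, 73.1 and 71.5 CPM in KO, 30.5 and 33.8 CPM in Q20, 89.6 and 80.6 CPM in Q50, 74.8 and 64.5 CPM in Q92 and 80.2 and 84.6 CPM in Q111. It was the only member called higher than Q20 in all 3 longer lines, by 1.38, 1.09 and 1.33 (adjusted p of 0.000217, 0.000662 and 0.000252), and Q20 held its 2 lowest libraries. Against WT it was higher in Q50 (0.75, adjusted p = 0.0145) and Q111 (0.70, adjusted p = 0.012), and in Q92 the change of 0.46 had an adjusted p of 0.0722. Gria2, whose RNA is edited to make AMPA channels poorly permeable to calcium, reached 207 and 166 CPM in Q50 against 70.0 to 112 CPM in the other lines (1.33 above Q20, adjusted p = 0.000355; 0.80 above WT, adjusted p = 0.0132). Gria1, the partner of Gria2 in many adult synapses, stayed at 0 to 1.16 CPM and was not tested.

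The makeup of the AMPA family differed between lines. In CPM per kb, Gria4 made up 62.7% to 65.1% of the family sum in WT and KO and 41.7% to 51.9% in Q20, Q50 and Q111. In the Q92 libraries it was 4.84% and 4.35%, and Gria3 made up 55.0% and 54.3%. The family sum was 33.7 and 31.9 in WT, 14.0 and 14.5 in Q20, 40.8 and 39.6 in Q50, 13.8 and 12.0 in Q92 and 26.2 and 26.3 in Q111. These are RNA levels per gene and hold no information on isoforms or assembled receptors.

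**Figure D3:**
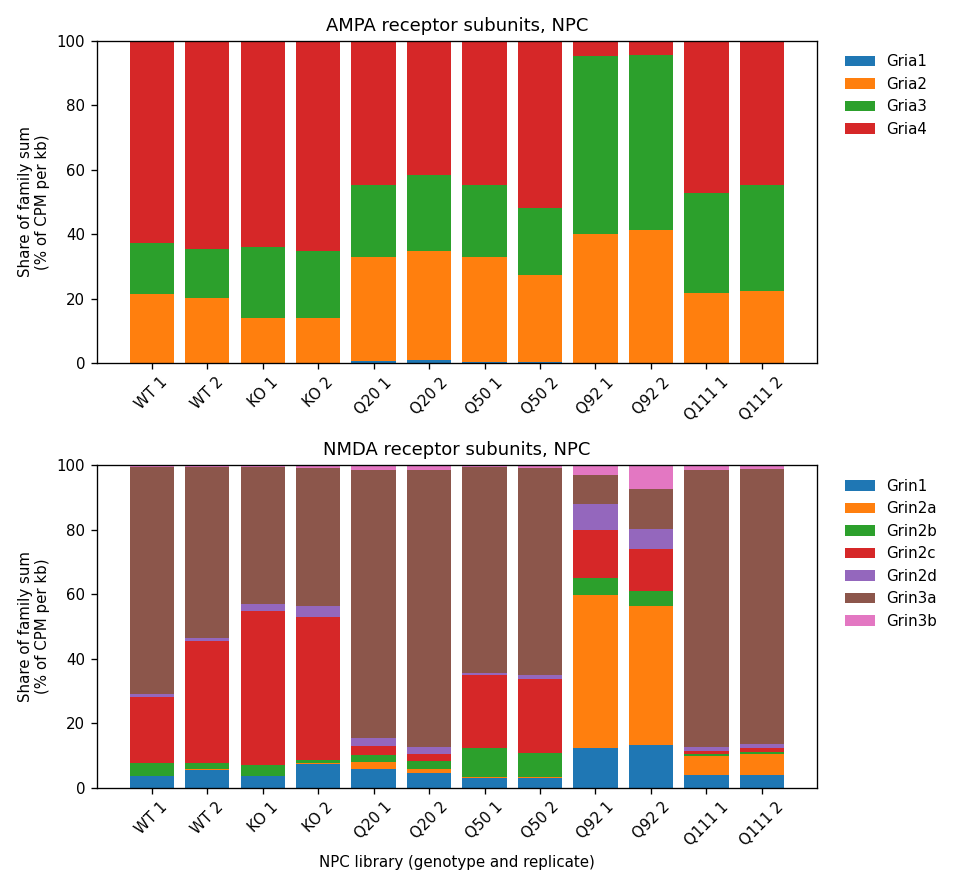
Share of each AMPA subunit (upper panel) and each NMDA subunit (lower panel) in the family sum of CPM per kb, in percent, for each NPC library. Gria4 is 4.84% and 4.35% in Q92 and at least 41.7% elsewhere, and Grin3a is 8.75% and 12.2% in Q92 and at least 42.7% elsewhere; Grin2a makes up 47.7% and 43.2% in Q92.

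NMDA receptor genes also had another makeup in Q92, where the family sum in CPM per kb was 1.63 and 1.79 against 5.00 to 11.4 in the other lines. Grin3a encodes GluN3A, a subunit that lowers the calcium permeability of the channel and is prominent in early development. Its levels were 65.3 and 49.2 CPM in WT, 33.5 and 26.3 CPM in KO, 51.7 and 55.6 CPM in Q20, 84.5 and 89.9 CPM in Q50, 1.75 and 2.67 CPM in Q92 and 70.3 and 70.2 CPM in Q111. Only Q92 lay below 26.3 CPM, with a change of -4.10 against Q20 (SE 0.21, adjusted p = 5.67e-06) and -4.18 against WT (adjusted p = 4.5e-05). Grin2a, which encodes the GluN2A subunit typical of mature synapses, ran the other way. It was 0.140 to 0.295 CPM in WT and KO, 2.00 and 1.23 CPM in Q20, 0.696 and 1.11 CPM in Q50, 13.9 CPM in both Q92 libraries and 7.17 and 7.90 CPM in Q111. It rose by 2.53 in Q92 (SE 0.18, adjusted p = 3.7e-05) and by 1.72 in Q111 (adjusted p = 0.000355) against Q20, and was also higher than in WT, by 3.62 and 2.81.

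Grin2b, the gene of GluN2B, was highest in Q50. It was 24.5 and 21.2 CPM in Q50 and at most 7.65 CPM in any other line (2.61 above Q20, SE 0.47, adjusted p = 0.00576; 1.97 above WT, adjusted p = 0.0445), and its WT libraries differed from each other, at 7.65 and 3.28 CPM. Grin2c, for GluN2C, was 7.74 to 15.4 CPM in WT, KO and Q50 and 0.338 to 1.21 CPM in Q20, Q92 and Q111, with no overlap between these lines. Its change from WT to Q20 was -2.79 (SE 0.27, adjusted p = 0.000206) and from Q20 to Q50 3.03 (adjusted p = 0.000123), and Q92 and Q111 were lower than WT, at -2.41 and -3.06. Grin1 lay between 1.93 and 4.16 CPM in the 12 libraries and was called in none of these comparisons.

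Of the 5 tested kainate receptor genes, 4 had their highest mean in Q20. Grik3, for the GluK3 subunit, was 21.7 and 14.1 CPM in WT, 16.3 and 15.4 CPM in KO, 55.9 and 55.0 CPM in Q20, 13.5 and 16.2 CPM in Q50, 38.3 and 29.0 CPM in Q92 and 3.66 and 3.46 CPM in Q111. Q20 was the highest line and Q111 the lowest, without overlap. Grik3 was 1.61 higher in Q20 than in WT (SE 0.24, adjusted p = 0.00229), fell by 3.63 in Q111 against Q20 (SE 0.24, adjusted p = 2.57e-05) and was also lower there than in WT, at -2.02. Grik1 showed the opposite in Q111: it was 2.91 and 3.54 CPM there and at most 0.578 CPM in the other 10 libraries (1.53 above Q20, adjusted p = 0.000269). Grik1 was tested because of Q111 alone, and edgeR on the recovered reads gave an adjusted p of 0.0695. Grik2, for GluK2, was 22.4 and 23.6 CPM in Q20 against 11.3 and 5.77 CPM in WT (1.40, adjusted p = 0.0125), and Grik4, for GluK4, was 10.9 and 9.04 CPM in Q20 and 1.53 to 5.17 CPM in the other lines (1.08 above WT, adjusted p = 0.0476, and 0.109 with edgeR). Grik5, for the high-affinity subunit GluK5, stayed within 26.5 to 48.4 CPM.

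Grid1, for a delta receptor whose protein acts mainly as a synaptic adhesion partner, was 61.9 and 30.4 CPM in WT, 54.7 and 28.5 CPM in KO, 31.2 and 28.6 CPM in Q20, 27.9 and 21.5 CPM in Q50, 14.1 and 13.3 CPM in Q92 and 17.8 CPM in both Q111 libraries. The libraries of WT and of KO differed widely within a group, and Q92 was the lowest line, without overlap. It was not called in any comparison of another line with Q20 or of Q20 with WT. Against WT, Grid1 was lower in Q92 (-1.60, SE 0.37, adjusted p = 0.0357).

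Of the metabotropic receptors, Grm5 was highest in Q50 and Grm3 in WT. Grm5 encodes mGluR5, a Gq-coupled receptor of neurons, progenitors and immature astrocytes. It was 313 and 213 CPM in WT, 185 and 113 CPM in KO, 160.1 and 176 CPM in Q20, 423 and 396 CPM in Q50, 115 and 94.8 CPM in Q92 and 237 and 234 CPM in Q111. The Q50 libraries lay above the others, with a change of 1.28 against Q20 (SE 0.25, adjusted p = 0.00902). That call was lost without Q20 replicate 1 (adjusted p = 0.0644) and without Q50 replicate 1 (adjusted p = 0.0597), and the change against WT was 0.67 (adjusted p = 0.181). Grm3 encodes mGluR3, a Gi-coupled receptor found on astrocytes and neurons. It was 179.8 and 107 CPM in WT, 52.4 and 38.6 CPM in KO, 36.8 and 37.0 CPM in Q20, 78.3 and 59.4 CPM in Q50, 29.4 and 30.6 CPM in Q92 and 16.2 and 15.3 CPM in Q111. Both WT libraries were above all 10 others. Grm3 was lower than WT in Q20 (-1.88, adjusted p = 0.0017), Q92 (-2.17, adjusted p = 0.00256) and Q111 (-3.06, adjusted p = 0.00026). Its promoter (chr5:9725353-9725602, minus strand) is printed because Grm3 was among the 2 members called in the libraries labelled KO; the window holds 8 CG, and 43% of all windows hold as many or more.
Grm3: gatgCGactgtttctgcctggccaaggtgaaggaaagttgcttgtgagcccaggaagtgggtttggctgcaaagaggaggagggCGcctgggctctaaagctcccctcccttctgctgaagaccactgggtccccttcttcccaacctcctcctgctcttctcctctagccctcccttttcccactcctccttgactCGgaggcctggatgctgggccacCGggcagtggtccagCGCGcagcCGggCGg

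Between the libraries labelled KO and WT in NPC, where Htt itself was not called, 2 of 30 members were called, Grm4 higher and Grm3 lower, against 1.42% of all genes (0.878% higher and 0.545% lower). Grm4 encodes mGluR4, a group III receptor that dampens transmitter release. It was 0.928 and 1.08 CPM in WT and 14.2 and 8.91 CPM in KO, and at most 1.90 CPM in the 8 knock-in libraries. Its change was 2.62 (SE 0.22, adjusted p = 0.00156), and it lost the call with edgeR (adjusted p = 0.0597). Grm3 changed by -1.60 (SE 0.26, adjusted p = 0.0277) and lost the call without WT replicate 1 (-1.23, adjusted p = 0.0614), without KO replicate 1 (adjusted p = 0.0575) or without KO replicate 2 (adjusted p = 0.0989). Fitted on the 4 KO and WT libraries alone, neither was called, but that fit called 0% of all 13206 genes. At an unadjusted p under 0.05 there were 10 members (33.3%, against 13.3% of all genes), and the median change was -0.30 against 0.03 over all genes. Gria4, by contrast, was 0.08 from WT (SE 0.14), with the KO libraries at 136 and 143 CPM. The WT and KO libraries were less alike than those of the knock-in lines: the median size of the difference between the 2 libraries of a line was 0.44 and 0.33 over all genes in WT and KO and 0.11 to 0.17 in the 4 knock-in lines.

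Several GABAA receptor genes were higher in Q20 than in WT. Of 9 tested, 6 were called higher (Gabra3, Gabra4, Gabra5, Gabrb1, Gabrb2 and Gabrq), Gabra2 was lower, and Gabrg1 was among the 2 not called (9.97% of all genes were called higher). Gabra4 and Gabrq were tested because of Q20 alone and were not called by edgeR (adjusted p of 0.0537 and 0.202). Gabra3, for the α3 subunit common in the developing brain, was 0.981 and 1.09 CPM in WT, 0.493 and 0.626 CPM in KO, 14.2 and 14.6 CPM in Q20, 1.78 and 1.31 CPM in Q50, 1.21 and 0.876 CPM in Q92 and 3.49 and 4.28 CPM in Q111. Q20 was highest and Q111 next, without overlap with the others. The change of Gabra3 from WT to Q20 was 2.92 (SE 0.16, adjusted p = 1.31e-05). Gabrb2, for β2, was 3.83 and 4.63 CPM in Q20, 1.49 and 1.03 CPM in WT and 0.0495 and 0.0625 CPM in Q92, a change of -2.30 from Q20 to Q92 (SE 0.17, adjusted p = 3.56e-05) and of -1.09 from WT (adjusted p = 0.00725). Gabra5, for α5, was 1.65 and 1.43 CPM in Q20 and 0.0887 to 0.282 CPM in WT and KO (1.06, adjusted p = 0.00364). With quantile normalization its change was 0.59 (adjusted p = 0.0591).

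Many GABAA genes lie in clusters, and neighbours in a cluster did not move together in every line. On chromosome 5, Gabrg1, Gabra2, Gabra4 and Gabrb1 lie within 1398 kb (chr5:70751047-72149037, GRCm38). Gabra4, for α4, was 3.73 and 4.46 CPM in Q20 and 0 to 0.853 CPM in the other 10 libraries, and Gabrb1, for β1, was 4.39 and 3.69 CPM in Q20 and 0.696 to 1.48 CPM elsewhere. Gabra2, for α2, had Q20 among its lowest lines: it was 6.50 and 7.74 CPM in WT, 5.25 and 7.97 CPM in KO, 2.19 and 2.67 CPM in Q20, 4.82 and 5.74 CPM in Q50, 2.51 and 2.88 CPM in Q92 and 41.7 and 36.3 CPM in Q111. Gabra4 reached the level for testing through Q20 alone and had to differ there, so its change is not used. From WT to Q20, Gabrb1 changed by 1.36 (SE 0.20, adjusted p = 0.00211) and Gabra2 by -1.24 (SE 0.22, adjusted p = 0.00676). The Gabra2 call was lost without Q20 replicate 1 (adjusted p = 0.0626).

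In Q111, Gabra2 stood alone in the cluster. It was 3.54 above Q20 (SE 0.22, adjusted p = 2.22e-05) and 2.30 above WT (SE 0.22, adjusted p = 0.000479), while Gabrg1 next to it was 23.5 and 25.0 CPM in Q111 against 56.5 and 49.4 CPM in Q20 (-1.09, SE 0.31, adjusted p = 0.0338). Against WT the change of Gabrg1 in Q111 was -1.02 (SE 0.31, limma adjusted p = 0.06) and was not called, nor was Gabrg1 called by the F test. Gabra2 made up 41.5% and 36.3% of the GABAA sum in CPM per kb in Q111 and at most 14.5% elsewhere, and Gabrg1 22.7% and 24.3% against at least 37.5%. The promoters of this pair, each 250 bases before the RefSeq start on the minus strand, are set side by side because the genes moved in opposite directions from Q20 to Q111. That of Gabra2 (chr5:71095850-71096099) holds 18 CG, in capitals, and 21.7% of all windows hold as many or more; that of Gabrg1 (chr5:70842618-70842867) holds 1, and 92.1% of windows hold as many or more.
Gabra2: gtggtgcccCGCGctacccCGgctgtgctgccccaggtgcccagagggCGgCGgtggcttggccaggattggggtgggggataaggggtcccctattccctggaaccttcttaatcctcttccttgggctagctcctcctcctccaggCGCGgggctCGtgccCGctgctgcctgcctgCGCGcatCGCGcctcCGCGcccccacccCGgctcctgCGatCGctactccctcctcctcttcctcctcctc
Gabrg1: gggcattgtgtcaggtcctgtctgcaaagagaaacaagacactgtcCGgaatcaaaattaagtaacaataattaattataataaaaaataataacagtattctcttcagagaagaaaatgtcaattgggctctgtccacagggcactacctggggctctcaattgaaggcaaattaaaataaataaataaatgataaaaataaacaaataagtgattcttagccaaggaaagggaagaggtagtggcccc
On the X chromosome, Gabre, Gabra3 and Gabrq lie within 587 kb (chrX:72255999-72842602), and all 3 were highest in Q20. Gabrq, for θ, was 1.85 and 1.17 CPM in Q20 and 0 to 0.514 CPM in the other libraries. It reached the level for testing through Q20 alone and had to be high there, so its change is not used. Gabre, for ε, was 0.683 and 0.922 CPM in Q20, under the level for testing. Gabra3 was the only gene of this cluster tested without resting on Q20, so a peak shared by the cluster was not tested.

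**Figure D4:**
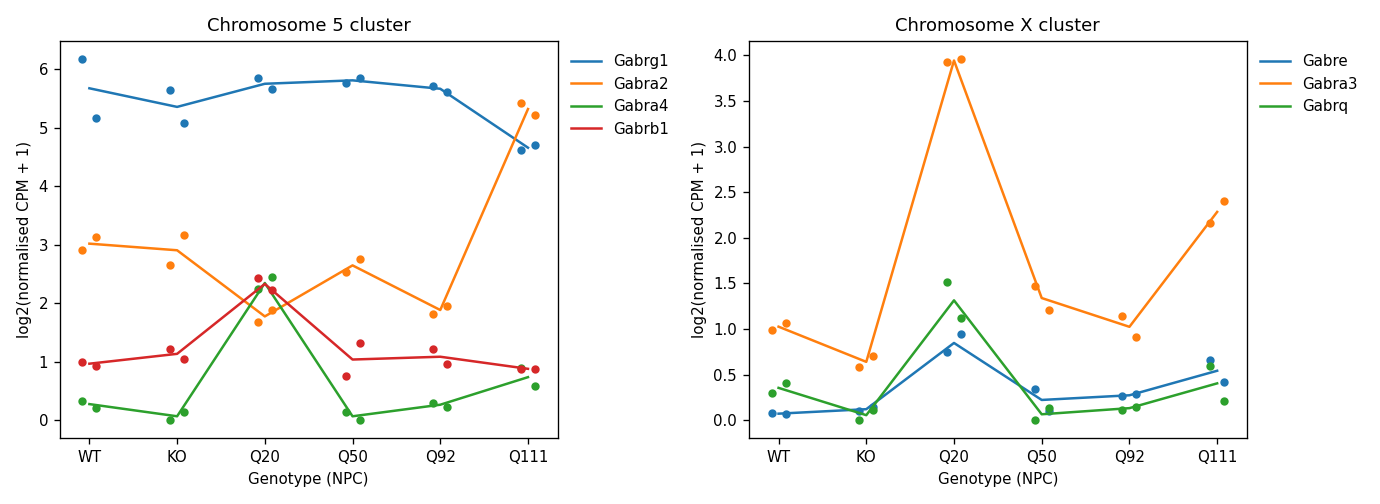
Levels of the GABAA genes of the chromosome 5 cluster (left) and the X chromosome cluster (right) in NPC, as log2(normalised CPM + 1); points are libraries and lines join the means of the 6 genotypes. Gabrb1 peaks in Q20 where Gabra2 is low, Gabra2 alone is highest in Q111, and Gabra3 peaks in Q20. Gabra4 and Gabrq are also highest in Q20 but passed the filter through that line alone, and Gabre was not tested.

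The GABAB receptor works as a pair of its subunits, with Gabbr1 binding GABA and Gabbr2 coupling to the G protein, and both genes were highest in Q20 and lowest in Q111. Gabbr1 was 119.7 and 37.2 CPM in WT, 56.0 and 31.0 CPM in KO, 238 and 219 CPM in Q20, 52.1 and 55.6 CPM in Q50, 53.2 and 55.0 CPM in Q92 and 20.7 and 20.5 CPM in Q111. Gabbr2 was 9.83 and 6.37 CPM in WT, 4.95 and 11.4 CPM in KO, 41.6 and 38.8 CPM in Q20, 9.51 and 10.4 CPM in Q50, 11.1 and 8.58 CPM in Q92 and 1.58 and 1.42 CPM in Q111. Neither of these lines overlapped the others, and Q50 and Q92 lay within the range of WT and KO. From WT to Q20 they changed by 1.76 (SE 0.47, adjusted p = 0.0413) and 2.20 (SE 0.34, adjusted p = 0.00334), the first not called by edgeR (adjusted p = 0.0907), and from Q20 to Q111 by -3.41 (adjusted p = 0.00135) and -4.04 (adjusted p = 0.000103). Against WT, Q111 was also lower, at -1.65 for Gabbr1 (adjusted p = 0.047), and at -1.84 for Gabbr2 (adjusted p = 0.0114). The Gabbr1 calls in Q50 and Q92 against Q20 were lost without any 1 of the 4 libraries compared (Q20 replicates 1 and 2 with the replicates of Q50 or Q92), with adjusted p from 0.0628 to 0.0956. Gabbr1 made up 70.0% to 92.6% of the pair's sum in CPM per kb.

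Over the 4 knock-in lines, 9 of 30 members followed the CAG length, 8 falling and Grin2a rising, against 22% of all genes (12% rising and 10.1% falling). Slopes are printed per 91 repeats, the distance from the shortest to the longest allele, in log2 units. Gabbr2 fell by 3.31 (SE 0.58, adjusted p = 0.00655), Gabbr1 by 2.83 (SE 0.47, adjusted p = 0.00555) and Grik4 by 1.42 (SE 0.30, adjusted p = 0.0134). Gabrb1, Grid1, Grik5 and Grm4 fell by 0.67 to 1.22, with adjusted p from 0.0266 to 0.047, and Grin2a rose by 2.55 (SE 0.66, adjusted p = 0.0284). The means fell at each step of length for Gabbr2, Gabra5, Grik5 and Grm4 and rose at each step for none. The median slope was -0.96 over the members and 0.04 over all genes. With 1 mean value per line, which leaves 4 points, no member was called, 4 had an unadjusted p under 0.05, and Gabbr1 and Gabbr2 had an adjusted p of 0.295. Without the Q20 line the Gabbr1 slope was -1.67 (adjusted p = 0.15), and without Q20 replicate 1 or 2 the number of members called was 2. It was 3 without Q111 replicate 1 and 4 without Q111 replicate 2.

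**Figure D5:**
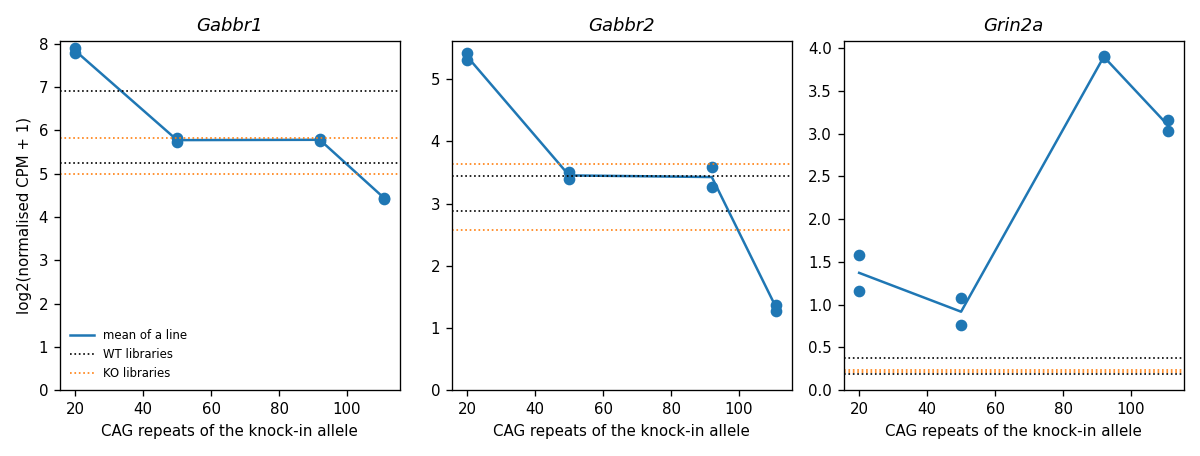
Gabbr1, Gabbr2 and Grin2a in NPC against the CAG repeats of the knock-in allele, as log2(normalised CPM + 1); points are libraries, the line joins line means, and dotted lines mark the WT and KO libraries. The GABAB genes lie lower in Q50 and Q92 than in Q20 and lowest in Q111, and Grin2a is highest in Q92.

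Other genes of glutamate and GABA signalling were read from a list of 61 transporters, enzymes, auxiliary subunits and scaffolds, of which 52 were tested in NPC. Against Q20, 25 were called in Q92, 6 higher and 19 lower, and 24 in Q111, 6 higher and 18 lower; 13 were called in Q50 and 7 in Q20 against WT. Over all genes the shares called were 25.8%, 28.3%, 18.8% and 14.5%, and the 7 of 52 lie near the last of these. edgeR called 8 of 52 in Q50 against Q20 and 4 of 52 in Q20 against WT, beside 2101 and 1511 of all 13206 genes. Neither count stood out from all genes. Of the list, 0 were called in KO against WT by limma and by edgeR (1.42% of all genes by limma). An unadjusted p under 0.05 (limma) was found for 8 of 52, near the share of all genes (13.3%). Transporters made up 6 of the lower genes in Q92 out of 8 tested, and enzymes another 6 of 8. With CAG length 14 were called, 2 higher and 12 lower, against 12% higher and 10.1% lower of all genes. Those that fell most were Slc1a2 (by 4.69, adjusted p = 0.00629), the main astrocytic glutamate transporter, Abat (by 4.06, adjusted p = 0.00112), the GABA transaminase, and Slc6a11 (by 3.64, adjusted p = 0.0284), a glial GABA transporter. Neto2 and Neto1, auxiliary subunits of kainate receptors, rose by 1.61 and 1.05.

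Markers of neurons and of glia shifted between the same lines. Of 8 neuron markers, 7, 5 and 4 were lower in Q50, Q92 and Q111 than in Q20, and 1, 1 and 0 were higher. Over all genes 10.7%, 15.9% and 16.1% were called lower, and 8.05%, 9.88% and 12.2% higher. The summed neuron markers were 957 to 1040, 926 to 1057 and 761 to 783 CPM in these lines, against 803 to 980 CPM in Q20. The summed level of 7 astrocyte markers, which include Slc1a2, was 2306 to 2610 CPM in Q20, 1274 to 2133 CPM in WT, 915 to 1449 CPM in KO, 1170 to 1766 CPM in Q50, 348 to 556 CPM in Q92 and 276 to 287 CPM in Q111. Of these 7, 6 were lower in Q92 and 5 in Q111 than in Q20, and 4 fell with CAG length, where 15.9%, 16.1% and 10.1% of all genes were called lower. The 6 oligodendrocyte lineage markers summed to 25.6 to 26.8 CPM in Q92, where Gria4 and Grin3a were lowest, and to 128 to 339 CPM in the other lines. Of the 6, 4 were lower in Q92 than in Q20, among them Pdgfra at 1.27 and 2.20 CPM against 162 and 203 CPM, and Cspg4 was higher, at 20.8 and 19.5 CPM against 5.17 and 4.26 CPM. The 6 markers of feeder fibroblasts summed to 847 to 870 CPM in Q50, 233 to 289 CPM in Q20 and 2.33 to 34.3 CPM in the other lines. Of 6 pluripotency markers, 4 were in the NPC table and summed to 106 to 107 CPM in Q20 and at most 26.5 CPM elsewhere. Of these 4, 2 were called higher in Q20 than in WT and 0 lower, against 9.97% and 4.57% of all genes. No marker of these lists that was in the NPC table stayed under 1 CPM in every library. The part of these cell types in the receptor differences was not tested.

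In mESC no comparison called a member under the main settings, which leave the replicate number out of the model. Among the highest per length were Grik3 with 4.18 CPM per kb, Gabbr1 with 3.77, Grik5 with 1.30 and Gabrp, for the π subunit, with 1.01. Of the 45 members in that table, 26 were tested. KO against WT called 0 of 26 (0.0144% of all genes) and the CAG trend 0 (0% of genes), with limma and with edgeR; at an unadjusted p under 0.05 there were 0 and 2 (0% and 7.69%, against 3.97% and 2.57% of all genes), the latter Grm7 and Gria4. Any difference among the 6 genotypes called 0 (0.201% of genes), and 3 had an unadjusted p under 0.05 (9.91% of all genes did). In mESC the replicate numbers paired the libraries, and with the replicate number as a block 6 members were called (8.67% of all genes), among them Grik3, Gabbr1, Gria4, Gabra4 and Grm7.

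Gria4 in mESC was 1.05 and 1.08 CPM in WT, 1.47 and 1.26 CPM in KO, 6.17 and 6.68 CPM in Q20, 3.43 and 2.84 CPM in Q50, 3.41 and 2.75 CPM in Q92 and 3.58 and 2.36 CPM in Q111. All knock-in libraries were above WT and KO, and Q20 was highest (adjusted p = 0.0907 without the block and 0.0119 with it). Markers of feeder fibroblasts summed to 40.8 to 65.0 CPM in the mESC knock-in libraries and 8.05 to 14.3 CPM in WT and KO, and progenitor markers to 192 to 520 CPM and 105 to 188 CPM; their part in the Gria4 levels was not tested. Grm7, for a group III receptor, was 1.25 and 1.63 CPM in Q92 and 0.655 and 1.24 CPM in Q111 and at most 0.0445 CPM in the other 8 libraries (adjusted p = 0.0787, and 0.0119 with the block). Gabbr1 was 10.1 and 21.1 CPM in Q20 and 14.2 and 24.5 CPM in Q111. Its mean in mESC was lowest in Q20 and highest in the KO libraries, whereas in NPC it was highest in Q20. Several members were seen mainly in single mESC libraries: Grm5 was 7.45 CPM in Q20 replicate 2 and 0.0445 CPM in Q20 replicate 1. The astroglial genes Slc1a2 and Slc6a11 were 5.80 and 14.8 CPM in that library and 0.43 and 0.133 CPM in replicate 1, and their part in the Grm5 value was not tested.

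The CAG slope differed between the cell types for 2 of the 20 members tested in both, Gabbr1 and Grin2a, against 4.86% of all genes (interaction of cell type and length over 16 knock-in libraries, limma). Gabbr1 had a slope of -2.83 in NPC and 0.35 in mESC, a difference of -3.17 (SE 0.72, adjusted p = 0.0207). Grin2a had 2.55 in NPC and -0.13 in mESC, a difference of 2.68 (SE 0.73, adjusted p = 0.0472), and with the replicate block, which mESC pairing calls for, it was not called (adjusted p = 0.0522). No member was called for a difference between the cell types in the change from WT to the libraries labelled KO, with 0% of all genes called (limma) and 2 of 20 members at an unadjusted p under 0.05; Htt RNA was present in all of these libraries, and in mESC KO replicate 1 it was not below WT.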

How the data were processed

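RNA of 12 mESC and 12 NPC libraries was measured per gene. Per the submitters' processing notes, CASAVA 1.8, STAR and GRCm38.p6 were used; what counted the reads, and whether by strand, is not given in the sources used here. Per the file headers, the authors deposited a signal of normalised CPM, with column totals of 900342 to 1080734. In every column 100% of values were whole multiples of a step (tolerance 0.001 reads), which gave back the reads. Genes with at least 1 CPM in at least 2 libraries (13206 in NPC, 13916 in mESC) were put on the log2(CPM + 1) scale and tested by limma 3.58.1 (variance trend, two-sided, R 4.3.3), with Benjamini-Hochberg adjustment over all genes tested. Because the values had been scaled by the authors, edgeR 4.0.16 on the recovered reads, in its quasi-likelihood test, was an alternative. Tables were scaled separately, so levels in mESC and NPC were set side by side without a test.

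The members and gene lists were chosen with earlier results of these data known. Changes are printed for called members (all up to 15, otherwise the 8 with the smallest p in each direction) and for relatives named beside them. Other genes named were the 3 with the largest rise and fall among called genes of the signalling list; fewer rose. The 2 interaction tests were added after seeing the data. Replicate numbers paired libraries in mESC, where deviations of same-numbered libraries correlated in 15 of 15 pairs of groups (r from 0.250 to 0.547). In NPC they did so mainly for WT and KO (r = 0.467). Data were simulated from the NPC KO against WT comparison over 13206 genes, with changes given only to genes above a mean of 5 CPM. Of these, 77% of genes changed by 2 on the log2 scale and 9% of those changed by 1 were recovered. For mESC over 13916 genes these were 27% and 0%. A mean of at least 5 CPM was reached by 18 of 30 tested members in NPC and 5 of 26 in mESC. Recovery of members below that level was not measured. Positions are from GENCODE M21 (47 of 47 members matched) and promoters from RefSeq on GRCm38.p6. No per-gene protein sequences were used here. Some members count in the totals and are not reported here by name.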

Additional observations from a re-analysis of the deposited data

Results flagged for a closer look

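The slope on CAG length differed between the cell types for Gabbr1, by -3.17 (SE 0.72, limma adjusted p = 0.0207): in NPC it was -2.83, with libraries at 238 and 219 CPM in Q20 and 20.7 and 20.5 CPM in Q111, and in mESC it was 0.35. The call was lost without NPC Q20 replicate 1 (-2.87, adjusted p = 0.0751), NPC Q20 replicate 2 (-2.95, adjusted p = 0.0651) or mESC Q20 replicate 1 (-2.58, adjusted p = 0.061), and with 1 mean value per line (adjusted p = 0.337).

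For Grin2a the slopes differed by 2.68 (SE 0.73, adjusted p = 0.0472), with 2.55 in NPC and -0.13 in mESC. This call was lost with the replicate block (adjusted p = 0.0522), with a pseudocount of 0.1 (3.50, adjusted p = 0.0648), with 1 mean value per line (adjusted p = 0.432) and without any 1 of 15 of the 16 knock-in libraries, NPC Q50 replicate 1 being the exception, with values from 2.44 to 3.10.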

How the results depend on the processing

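Numbers of members called are given here under each other setting that moved them by over 1.5 times. A mean of at least 5 CPM left 18 NPC members to test. It gave 1 for KO against WT (0.767% of genes), 8 for Q20 against WT (7.66%) and 15 for any genotype difference (31%). For Q50, Q92 and Q111 against Q20 it gave 11, 5 and 9 (13%, 19.7% and 22.3% of genes). For the CAG trend it gave 5, or 27.8% of members, near the 22.2% of genes. The fit of only the libraries of both groups gave 0 for KO against WT (0% of genes) and 5 for Q20 against WT (3.6%). For Q92 against Q20 it gave 20 of 30 (46.6% of genes). With WT as the reference, Q50 called 4 (6.62% of genes). edgeR gave 1 for KO against WT (107 of 13206 genes). With 1 mean value per line the NPC trend gave 0 and the interaction 0, the latter also falling from 2 to 1 with a pseudocount of 0.1. Without the filter on low values, mESC any genotype difference gave 1.

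The replicate block gave 3 for the NPC trend, 1 for the interaction and 6 for mESC any genotype difference. In NPC same-numbered deviations correlated over 0.1 in 3 of 15 pairs of groups (r from -0.0495 to 0.467). The highest r was that of WT and KO and lay within the range of the mESC pairs. The block gave 2, 17, 17, 15, 20 and 27 for KO against WT, Q20 against WT, Q50, Q92 and Q111 against Q20 and any genotype difference.

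Leaving out 1 library gave 1 to 6 for KO against WT (6 without WT replicate 2), 12 to 17 for Q20 against WT, 12 to 14 for Q50, 10 to 11 for Q92 and 13 to 14 for Q111 against Q20, 2 to 10 for the NPC trend, 23 to 28 for any genotype difference, 0 to 2 for the interaction of the trend, and 0 for the 3 mESC results and the interaction of the knockout. Q20 replicate 1 took Q20 against WT from 18 to 12, and Q111 replicate 1 took Q111 against Q20 from 20 to 13.

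With WT as the reference in place of Q20, changes turned sign in Q50 for Gria4 (-0.11), Gabra2 (-0.37), Gabra3 (0.31), Gabrb1 (0.071) and Gabbr2 (0.29), in Q92 for Gabrb1 (0.12) and Gabbr2 (0.27), and in Q111 for Gria4 (-0.78), Gabra4 (0.46), Gabra3 (1.26) and Gabrq (0.049). Over all settings of the named members, 745 values kept direction and side of the threshold, 157 lost the call and 11 turned sign. Leaving aside WT as the reference, the call held in every setting run for 4 of 14 named members in Q20 against WT, 12 of 16 in Q50, 9 of 12 in Q92 and 10 of 13 in Q111, and for 0 of 2 in KO against WT, 0 of 9 in the trend and 0 of 2 in the interaction. The cause of these shifts was not tested. With 2 libraries a group and low reads, changes in Grik1, Gabra4 and Gabrq are the least precise.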
